A study of Rattus norvegicus with 68 samples.

Results

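The genes described here are those whose signal was lower at 6, 10 and 15 ppm of inhaled formaldehyde at every time sampled in the nasal epithelium of rats. They were chosen by their own group means. A gene entered when its mean log2 signal was at least 0.3 below the reference in all 9 comparisons of a high dose and a time, with a mean of 6 or more in each of the 3 reference groups. On this scale a change of -1 divides the signal by 2. Of 14217 genes with a named probe set, 11083 had reference means of 6 or more and 156 genes entered, which is 1.41% of the 11083. The rule left 9 genes out by name, and 6 of them (Cyp4b1, Fmo1, Fmo2, Ces1d, Cxcl13 and Pigr) would otherwise have met the rule.

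Each of 68 arrays held RNA of nasal epithelium from 1 male F344/CrlBR rat, 8 weeks old per the labels, that breathed formaldehyde by whole-body exposure for 6 hours a day on 5 days a week. There were 17 groups of 4 rats. The exposed rats breathed 0.7 or 2 ppm (low doses) or 6, 10 or 15 ppm (high doses) for 5 days, 4 weeks or 13 weeks, and rats at 0 ppm were sampled at 5 days and 13 weeks. The reference was 0 ppm at 5 days and 13 weeks, and 0.7 ppm at 4 weeks, where no 0 ppm array was used here. The series text calls the first time 1 week. For some rats at 4 weeks the treatment field of the labels gives another duration, and the groups follow the time point in the description field. The titles carry another code for 0 ppm than for the exposed rats, and the 0 ppm code differs between 5 days and 13 weeks. These codes cannot be told apart from dose and time. Proteases freed the cells from nasal tissue of level II after the maxilloturbinate and the olfactory epithelium had been discarded, and per the labels these cells were mainly transitional epithelium. The 8 epithelial markers used as a check (Epcam, Cdh1, keratins and claudins) had a mean log2 signal of 12 to 12.6 on every array. The 6 olfactory markers had a mean of 8.73 to 12.7, so olfactory marker signal was present and varied from rat to rat. The 6 fibroblast markers had a mean of 9.8 to 12.6, so fibroblast marker signal was present and varied as well.

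Formaldehyde is a reactive aldehyde that binds proteins and DNA where air first meets the nasal lining, and it is cleared in cells by glutathione-dependent dehydrogenation and by aldehyde dehydrogenases. The lining of the front of the nose is a transitional and respiratory epithelium with ciliated, secretory and basal cells, scattered ionocytes, tuft cells and glands. Ionocytes are rare cells rich in the chloride channel CFTR and a proton pump, and are specified by the transcription factors Foxi1 and Ascl3 in mice. Glands and surface cells move chloride, potassium and water under muscarinic, adrenergic and peptide receptors.

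Promoters are shown for 4 genes of the set. Aox1 and Aox4 are aldehyde oxidases on chromosome 9 with 1 protein-coding gene between them. Dhrs3 reduces retinal, and of the promoters in the set its own was the one with a FOXA-type TGTTTAC match. Kcnma1, the BK potassium channel, stands for the long genes described further on. Each runs from 250 bases before to 50 bases after the RefSeq start (GRCr8), 5′ to 3′ on the gene's strand. Capitals mark any match, on either strand, to TGTTTAC (FOXA), TTNNGCAA (C/EBP), TGANTCA (AP-1), CCAAT (NF-Y), GGGCGG (Sp1) or TATAAA (the TATA box).
Aox1, chr9:67073641-67073940, plus strand: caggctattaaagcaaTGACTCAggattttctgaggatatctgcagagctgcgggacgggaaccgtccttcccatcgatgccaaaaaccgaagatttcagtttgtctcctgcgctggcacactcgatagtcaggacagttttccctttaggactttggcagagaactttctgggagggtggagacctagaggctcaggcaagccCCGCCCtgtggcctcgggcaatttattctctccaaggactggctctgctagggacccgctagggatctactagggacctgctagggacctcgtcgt
Aox4, chr9:67255187-67255486, plus strand: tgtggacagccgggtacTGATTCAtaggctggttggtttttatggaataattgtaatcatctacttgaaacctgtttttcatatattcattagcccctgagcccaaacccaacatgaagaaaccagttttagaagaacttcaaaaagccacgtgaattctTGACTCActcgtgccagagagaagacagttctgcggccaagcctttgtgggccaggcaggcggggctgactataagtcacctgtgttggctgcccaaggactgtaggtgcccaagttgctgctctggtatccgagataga
Dhrs3, chr5:162031603-162031902, plus strand: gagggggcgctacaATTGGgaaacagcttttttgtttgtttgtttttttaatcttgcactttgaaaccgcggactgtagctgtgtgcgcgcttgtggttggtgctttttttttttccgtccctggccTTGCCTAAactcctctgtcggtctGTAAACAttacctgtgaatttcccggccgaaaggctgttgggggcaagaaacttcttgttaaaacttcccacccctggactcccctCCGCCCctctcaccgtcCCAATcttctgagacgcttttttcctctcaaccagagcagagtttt
Kcnma1, chr15:351675-351974, plus strand: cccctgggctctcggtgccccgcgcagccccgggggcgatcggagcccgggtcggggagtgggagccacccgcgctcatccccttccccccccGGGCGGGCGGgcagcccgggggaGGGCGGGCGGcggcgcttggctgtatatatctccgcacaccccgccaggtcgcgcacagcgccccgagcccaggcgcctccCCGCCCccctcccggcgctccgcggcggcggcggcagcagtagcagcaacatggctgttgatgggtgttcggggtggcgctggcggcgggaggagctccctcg

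RefSeq promoters were at hand for 134 of the 156 genes. TTNNGCAA matched 19 of the 134 (14.2%), against 8.29% of 9231 promoters of genes with reference means of 6 or more and 10.5% of all 27457 promoters of this length. TGANTCA matched 9 of them (6.72%), against 5.07% and 7.33%. The Aox1 promoter held this motif once, at -234 from the start, and the Aox4 promoter held it at -233 and at -90. TGTTTAC matched 1 of 134 (0.746%), against 2.37% and 3.76%. CCAAT matched 38.8%, against 37.7% and 37.7%, GGGCGG matched 54.5%, against 62.6% and 34.9%, and TATAAA matched 10.4%, against 6.9% and 14.3%. These are matches of letters in a short window, and TTNNGCAA and TGANTCA are short enough to occur often.

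The members' changes at the high doses describe the choice and were not tested. At 6, 10 and 15 ppm the median change over the 156 genes was -0.53, -0.59 and -0.96 at 5 days, -0.45, -0.58 and -0.84 at 4 weeks, and -0.50, -0.81 and -1.22 at 13 weeks. The median over all 14217 genes lay between -0.02 and 0.01 in these comparisons. The share of all genes at least 0.3 lower was 9.38%, 9.14% and 18.1% at 5 days, 5.29%, 7.8% and 17.5% at 4 weeks and 5.8%, 14.2% and 20.9% at 13 weeks, and all 156 genes are in each by the rule. The rule set no order among the doses. The same group means chose the genes, and the order was not counted over all genes, so the next counts are a description. The signal was lower at 15 than at 6 ppm for 144 of the 156 genes at 5 days, 153 at 4 weeks and 152 at 13 weeks. Means that went down in the full order 6, 10, 15 ppm were seen for 94, 115 and 138 genes. The deepest of the 9 changes was at 15 ppm for 13 weeks for 104 genes, at 15 ppm for 5 days for 34, at 10 ppm for 13 weeks for 10 and at 15 ppm for 4 weeks for 8. The reference at 4 weeks was 0.7 ppm and not 0 ppm, so depth is not strictly comparable between times. Against 0.7 ppm the median at 15 ppm was -0.89 at 5 days and -1.21 at 13 weeks.

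**Figure D1:**
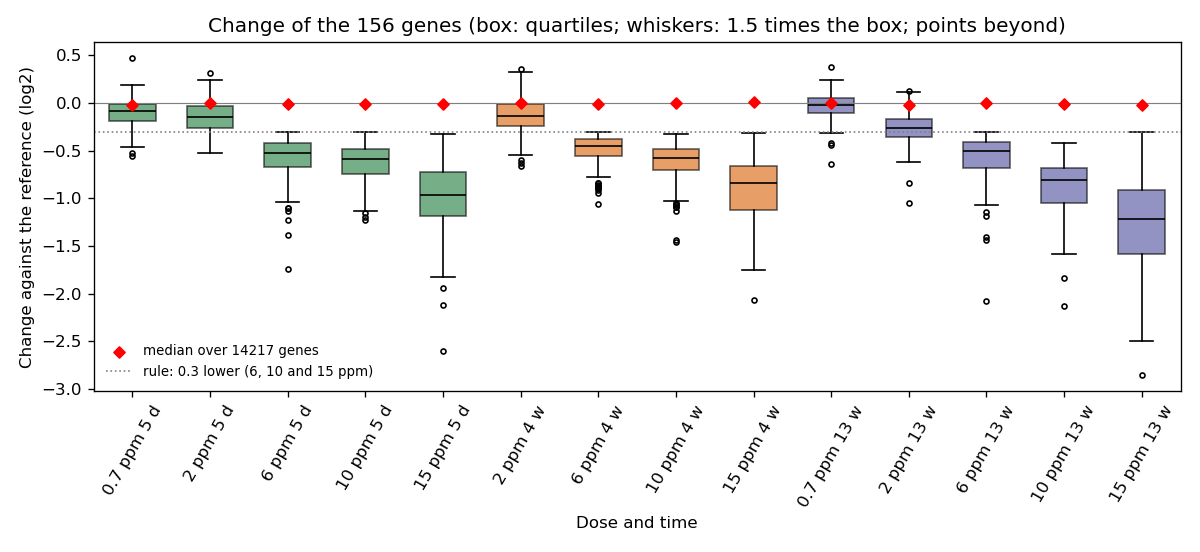
Change in log2 signal of the 156 genes against the reference of the same time, for each dose and time; boxes span the quartiles and red diamonds give the median over 14217 genes. The boxes at 6, 10 and 15 ppm lie below the line at 0.3 lower because the rule put them there, and the median goes from -0.50 at 6 ppm to -1.22 at 15 ppm at 13 weeks.

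The lower values were seen in each rat at the high doses. Averaged over the 156 genes, each rat's difference from the reference mean was between -0.16 and 0.20 in the 4 rats at 0 ppm for 5 days, -0.63 to -0.44 at 6 ppm, -0.70 to -0.54 at 10 ppm and -1.05 to -0.90 at 15 ppm. At 4 weeks the 4 rats at 0.7 ppm ranged from -0.05 to 0.03, those at 6 ppm from -0.63 to -0.23, those at 10 ppm from -0.77 to -0.44 and those at 15 ppm from -1.0 to -0.82. At 13 weeks the range was -0.21 to 0.12 at 0 ppm, -0.63 to -0.53 at 6 ppm, -1.02 to -0.71 at 10 ppm and -1.41 to -1.13 at 15 ppm. At each time no rat at 6, 10 or 15 ppm reached the reference rats. The group means of these same rats chose the genes, so that gap follows in large part from the rule. Neighbouring doses overlapped except 15 ppm against 10 ppm at each time and 10 ppm against 6 ppm at 13 weeks. Gene by gene at 13 weeks, the rats at 6, 10 and 15 ppm lay wholly below the 0 ppm rats for 120, 149 and 153 members. They did so for 978, 1920 and 2634 of all 14217 genes. For the members named below, a lack of overlap with the reference also follows in large part from the rule. In bulk RNA, fewer cells of a type and less RNA per cell cannot be told apart.

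**Figure D2:**
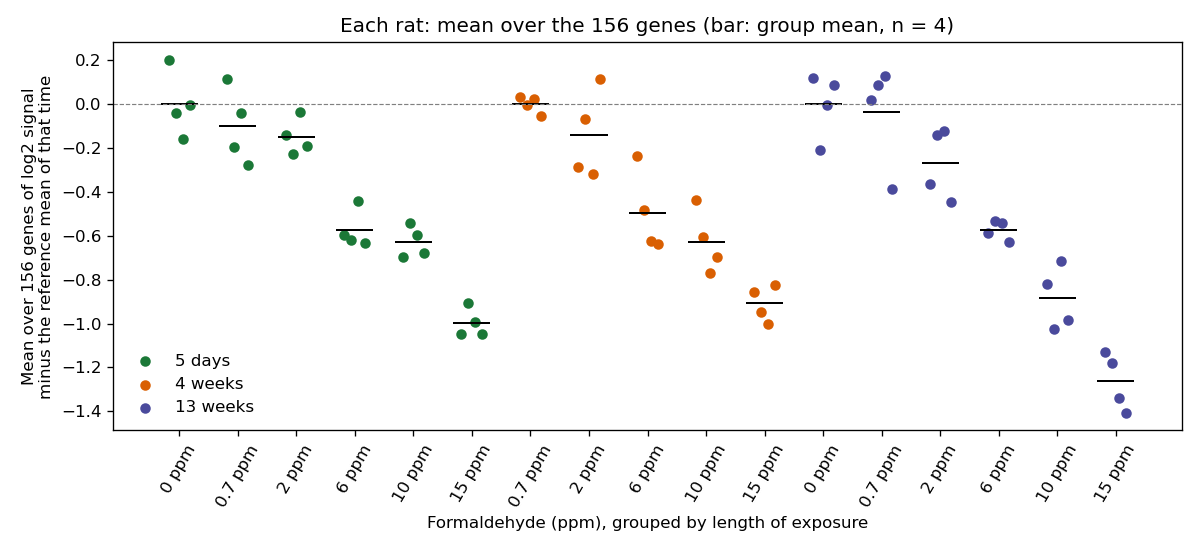
Mean over the 156 genes of log2 signal minus the reference mean of the same time, 1 point per rat, with the bar at the mean of the 4 rats. Rats at 15 ppm for 13 weeks lie between -1.41 and -1.13, and 1 of the 4 rats at 0.7 ppm for 13 weeks lies at -0.38, below the other 3.

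Uts2r, the receptor for the peptide urotensin II, had the largest mean change of the set. At 13 weeks its log2 signal was 8.13, 8.44, 8.60 and 8.91 in the rats at 0 ppm, 6.05, 6.46, 6.46 and 6.82 at 6 ppm, and 5.64, 5.99, 6.24 and 6.24 at 15 ppm. At 5 days it was 6.99, 7.22, 7.70 and 7.80 at 0 ppm and 5.50, 5.55, 5.66 and 6.04 at 6 ppm. The reference and exposed rats did not overlap at either time, and at 5 days the change at 6 ppm (-1.74) was deeper than at 10 ppm (-1.20). In the 2 ppm rats Uts2r ranged from 6.83 to 7.89 at 13 weeks, below every 0 ppm rat.

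Vipr1 encodes a receptor for vasoactive intestinal peptide, which drives secretion in airway glands. Its signal at 13 weeks was 10.22, 10.57, 10.79 and 10.80 at 0 ppm, 9.59, 9.70, 9.71 and 9.78 at 6 ppm, 9.09, 9.19, 9.46 and 9.52 at 10 ppm, and 8.11, 8.28, 8.51 and 8.89 at 15 ppm. These 4 groups followed the order of dose with no overlap. Its changes at 6, 10 and 15 ppm were -0.69, -0.94 and -1.28 at 5 days and -0.65, -0.90 and -1.34 at 4 weeks.

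Chrm3, the M3 muscarinic receptor that triggers fluid secretion in glands, differed from the reference by -1.14, -1.06 and -1.23 at 5 days and -0.75, -1.16 and -1.34 at 13 weeks. The alpha-2A adrenergic receptor Adra2a differed by -0.54, -1.01 and -1.73 at 13 weeks. Of the 65 genes with reference means of 6 or more in the list of developmental, growth factor and hormone signalling, 3 were in the set (Uts2r, Vipr1 and Adra2a), and at 15 ppm for 13 weeks 30 of the 65 were at least 0.3 lower and 15 at least 0.3 higher. The pair Asgr1 and Asgr2, subunits of the asialoglycoprotein receptor that clears desialylated glycoproteins in liver, lie on chromosome 10 with 1 protein-coding gene between them. Asgr2 read 9.22, 9.57, 9.59 and 9.73 at 0 ppm for 13 weeks and 6.14, 6.29, 7.06 and 7.19 at 15 ppm, a change of -2.86 that was the deepest single change in the set. Asgr1 differed by -1.15 in the same comparison. At 5 days Asgr2 spread more, from 7.94 to 9.19 at 0 ppm and from 6.29 to 8.24 at 15 ppm, and those ranges overlapped.

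Among surface and matrix proteins, Chodl, a membrane protein with a C-type lectin domain, read 8.28, 8.45, 8.94 and 9.43 at 0 ppm for 13 weeks and 6.14, 6.99, 7.18 and 7.46 at 10 ppm. Lgi1, a secreted leucine-rich repeat protein, read 7.60, 8.08, 8.11 and 8.28 at 0 ppm and 5.11, 5.57, 5.90 and 5.92 at 15 ppm for 13 weeks. Galnt13, an enzyme that starts O-glycan chains on mucin-type proteins, read 8.00, 8.41, 8.43 and 8.53 against 5.68, 5.94, 6.03 and 6.66. None of the 3 overlapped between those groups, which held for 149 members at 10 ppm and 153 at 15 ppm for 13 weeks. Over all 14217 genes these counts were 1920 and 2634. Rbms3, an RNA-binding protein, read 9.94, 10.41, 10.44 and 10.45 at 0 ppm and 8.07, 8.09, 8.46 and 8.58 at 15 ppm for 13 weeks.

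Nr3c2 is the mineralocorticoid receptor, which controls sodium uptake in epithelia. At 13 weeks it read 9.34, 9.59, 9.68 and 9.75 at 0 ppm, 8.93, 9.06, 9.08 and 9.24 at 6 ppm, 8.33, 8.36, 8.54 and 8.84 at 10 ppm, and 7.42, 7.54, 7.95 and 8.27 at 15 ppm. Each dose lay below the one before without overlap. Klf15, a glucocorticoid-responsive Kruppel-like factor, read 8.79, 9.73, 9.74 and 10.00 at 0 ppm and 7.36, 7.53, 7.70 and 7.75 at 15 ppm for 13 weeks, and its smallest change was -0.36 at 6 ppm for 4 weeks. Foxa1, a pioneer factor of airway epithelium, differed by -0.42, -0.63 and -1.25 at 5 days and by -0.38, -0.86 and -1.25 at 13 weeks, and Meis1 differed by -0.32 to -0.97 over the 9 comparisons. These 4 were the members of the epithelial transcription factor list, of 65 with reference means of 6 or more, of which 32 were at least 0.3 lower and 17 at least 0.3 higher at 15 ppm for 13 weeks. Ppargc1a, a coactivator of mitochondrial genes, differed by -0.61, -1.32 and -1.67 at 13 weeks.

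**Figure D3:**
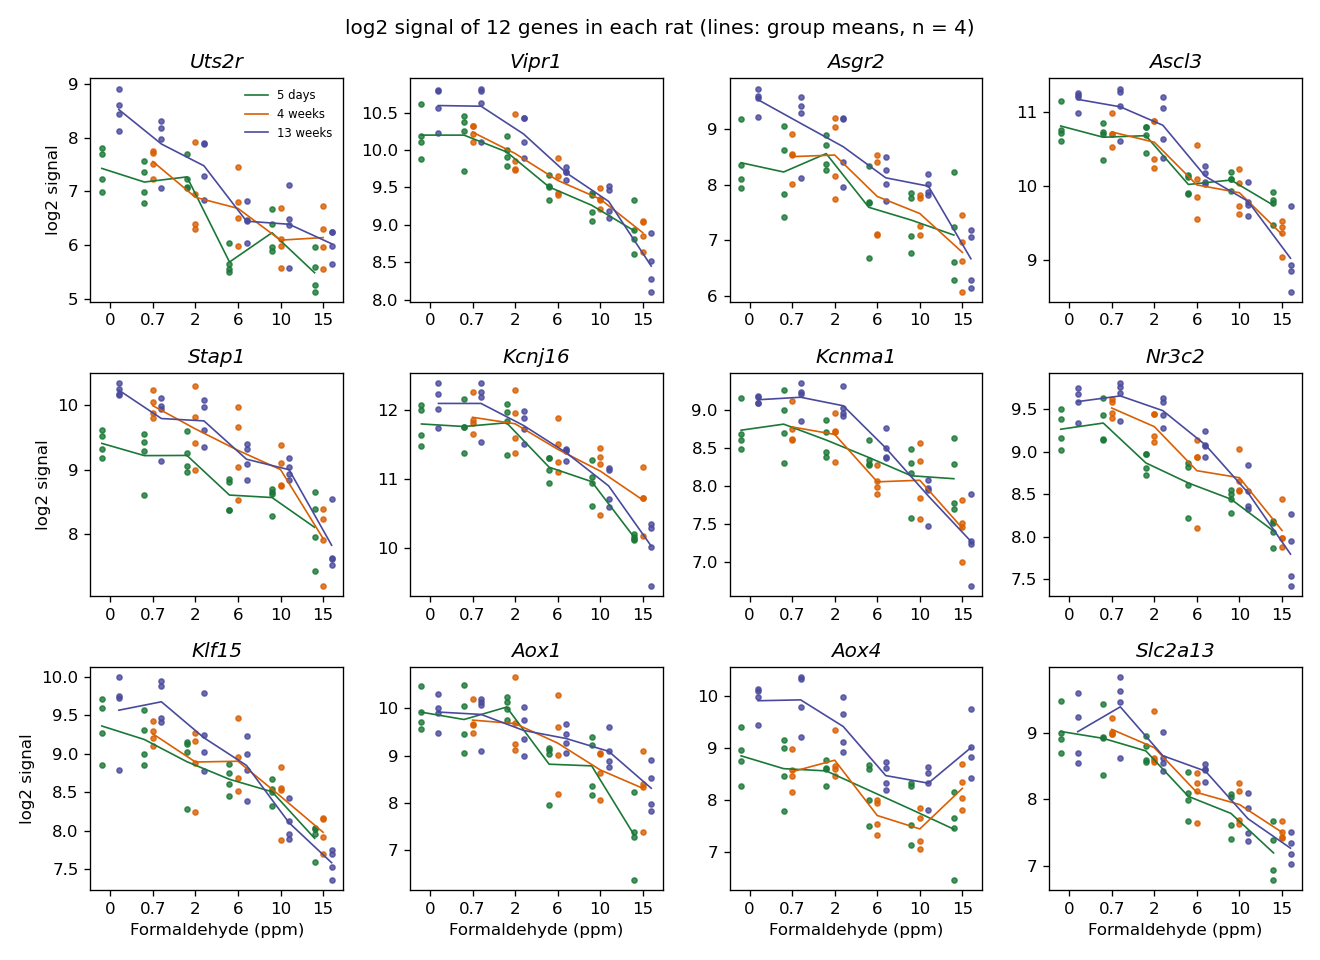
log2 signal of 12 genes of the set in each rat against formaldehyde dose, coloured by time, with lines through the means of 4 rats. Vipr1 and Nr3c2 step down at each dose from 6 to 15 ppm at 13 weeks, while Aox4 is lower at 10 than at 15 ppm at 4 and 13 weeks.

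Ascl3, which marks ionocytes in mice, read 10.99, 11.19, 11.23 and 11.26 in the rats at 0 ppm for 13 weeks, 10.03, 10.05, 10.17 and 10.27 at 6 ppm, and 8.58, 8.86, 8.94 and 9.74 at 15 ppm. Stap1, an adaptor protein that is also high in mouse ionocytes, read 10.17, 10.18, 10.25 and 10.35, then 8.84, 9.09, 9.32 and 9.40, then 7.51, 7.62, 7.62 and 8.55 in the same groups. For both genes the 0, 6 and 15 ppm groups did not overlap. At 4 weeks Stap1 at 6 ppm (8.53 to 9.97) overlapped the 0.7 ppm rats (9.81 to 10.24).

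The other ionocyte genes on the list missed the rule in 1 or more comparisons but were lower at 13 weeks as well. Foxi1 differed by -0.60, -0.70 and -1.38 at 6, 10 and 15 ppm for 13 weeks, although by 0.01 and -0.11 at 6 and 10 ppm for 5 days. Cftr differed by -0.35, -0.61 and -1.21 at 13 weeks, Bsnd, a chloride channel subunit, by -0.66, -0.91 and -1.49, and Atp6v1b1, a subunit of the proton pump, by -0.74, -0.95 and -1.69. The tuft cell genes on the list varied. Pou2f3, the factor that specifies tuft cells, differed by -0.14, -0.14 and 0.13, Avil by 0.05, 0.19 and -0.04 and Plcb2 by -0.13, 0.07 and -0.05 in the same comparisons. Dclk1, a kinase used as a tuft cell marker in mice, differed by -0.26, -0.61 and -0.70, and Alox5ap, of leukotriene synthesis, by -0.56, -0.68 and -0.85. Gnat3, the taste G protein gustducin found in tuft cells, was in the set, with -0.40, -0.69 and -1.76. Ltc4s, on the same list, differed by -0.10, -0.01 and -0.25 at 13 weeks. Alox5ap was not lower throughout, with 0.77 at 15 ppm for 5 days and -0.11 at 15 ppm for 4 weeks. The proton pump subunit Atp6v1c2 differed by -0.22, -0.30 and -0.40 at 13 weeks, less than the other ionocyte genes named. Atp6v1g3, another subunit, differed by -0.66, -0.82 and -2.24 at 13 weeks. At 6 ppm it differed by -0.05 at 5 days and -0.17 at 4 weeks, and Cftr by -0.20 at 10 ppm for 5 days. Of the neuroendocrine genes, Calca differed by 0.24, 0.14 and 0.20 at 13 weeks and Syp by -0.01, -0.08 and -0.21. In the same comparisons Chga differed by 0.20, -0.02 and -0.59 and Ddc by 0.19, 0.03 and -0.41. Of the 20 listed genes with reference means of 6 or more, 3 were in the set, 9 were below 0 in all 9 comparisons, and at 15 ppm for 13 weeks 13 were at least 0.3 lower and 0 at least 0.3 higher.

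**Figure D4:**
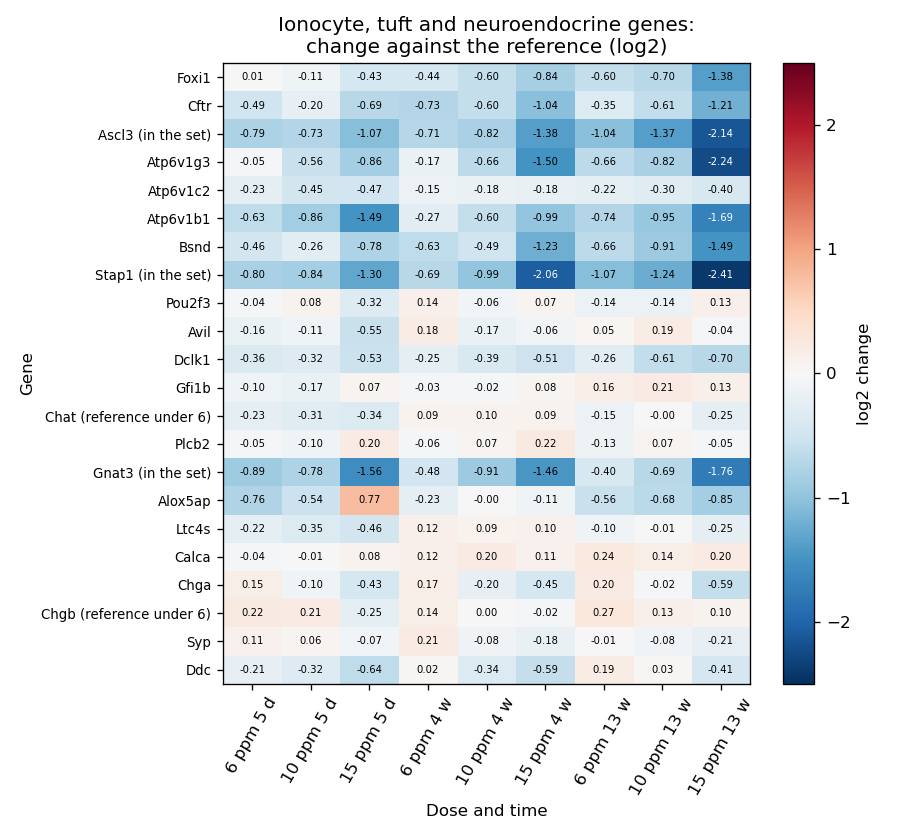
Change in log2 signal against the reference for the 22 measured genes of the ionocyte, tuft and neuroendocrine list in the 9 comparisons, with values in the cells. Ascl3, Stap1, Foxi1, Cftr, Bsnd, Atp6v1b1 and Atp6v1g3 are at or below -1.2 at 15 ppm for 13 weeks, and Atp6v1c2 is at -0.40. Of the tuft cell genes, Gnat3 (-1.76), Alox5ap (-0.85) and Dclk1 (-0.70) are low there, and Pou2f3, Avil, Gfi1b and Plcb2 lie between -0.05 and 0.13. Ltc4s is at -0.25 there, and Alox5ap is at 0.77 at 15 ppm for 5 days.

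Kcnj16, the Kir5.1 potassium channel subunit, was among the brighter members. It read 11.73, 12.01, 12.24 and 12.39 at 0 ppm for 13 weeks, 11.25, 11.40, 11.42 and 11.44 at 6 ppm and 9.45, 10.02, 10.28 and 10.34 at 15 ppm, with no overlap. Kcnma1, the calcium-activated BK channel, read 9.09, 9.10, 9.18 and 9.18 at 0 ppm and 6.69, 7.23, 7.28 and 7.89 at 15 ppm for 13 weeks, but at 5 days the 15 ppm rats (7.70 to 8.63) overlapped the 0 ppm rats (8.49 to 9.16). Lrrc26, the auxiliary subunit that lets BK channels open in secretory epithelia, differed by -0.83, -1.02 and -1.17 at 13 weeks. The chloride channel Ano1 differed by -0.59, -1.12 and -1.64, the potassium channel Kcnq1 by -0.54, -0.75 and -1.04, and Stk39, a kinase that activates the sodium-potassium-chloride cotransporter, by -0.65, -0.93 and -1.45.

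Of 49 listed transport genes with reference means of 6 or more, 6 were in the set (Ano1, Kcnq1, Kcnj16, Kcnma1, Fxyd6 and Car8), and 31 of the 49 were at least 0.3 lower and 7 at least 0.3 higher at 15 ppm for 13 weeks. Slc2a13, a proton-coupled myo-inositol transporter, read 8.54, 8.69, 9.24 and 9.59 at 0 ppm, 8.26, 8.44, 8.45 and 8.53 at 6 ppm and 7.02, 7.18, 7.33 and 7.51 at 15 ppm for 13 weeks. Its lowest 0 ppm rat lay just above its highest 6 ppm rat, and the 15 ppm rats were clear of both. Atp13a5, a P-type ATPase, read 10.76, 11.05, 11.13 and 11.19 at 0 ppm and 8.72, 8.79, 8.99 and 9.19 at 15 ppm.

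Aldehyde oxidases are molybdenum enzymes that oxidise aldehydes and aromatic heterocycles. Aox1 at 5 days read 9.56, 9.72, 9.93 and 10.48 at 0 ppm, 7.96, 9.03, 9.13 and 9.16 at 6 ppm and 6.37, 7.28, 7.38 and 8.23 at 15 ppm, a change of -2.61 at the highest dose. At 13 weeks it differed by -0.56, -0.83 and -1.61. Aox4 did not follow the order of dose. At 13 weeks it read 9.43, 9.97, 10.08 and 10.12 at 0 ppm, 7.82, 8.32, 8.53 and 8.63 at 10 ppm and 8.42, 8.82, 9.02 and 9.75 at 15 ppm, so its change was -1.58 at 10 ppm and -0.90 at 15 ppm, and at 4 weeks -1.10 and -0.32. The 15 and 0 ppm rats overlapped at 13 weeks.

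Of 67 listed foreign compound genes with reference means of 6 or more, 6 were in the set (Aox1, Aox4, Cyp4a8, Fmo4, Pon1 and Dhrs3), and others of that list had been left out by name. At 15 ppm for 13 weeks 41 of the 67 were at least 0.3 lower and 9 at least 0.3 higher. Cyp4a8, a fatty acid hydroxylase, differed by -0.53, -0.56 and -1.38 at 13 weeks, and Pon1, a lactone and ester hydrolase, by -0.44, -0.67 and -1.69. Dhrs3 differed by -0.60, -0.99 and -1.58. Of the aldo-keto reductases, Akr1c15 differed by -0.67, -0.80 and -1.65 and Akr1c19 by -0.72, -1.07 and -1.76. The probes of such close relatives (Aox1 with Aox4, Akr1c15 with Akr1c19, Nat8f3 with Nat8f5, Asgr1 with Asgr2) could read each other's transcripts, and their separate values are uncertain to that extent.

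Dpyd, which breaks down pyrimidines, read 8.63, 8.65, 8.73 and 9.04 at 0 ppm for 13 weeks and 7.0, 7.33, 7.37 and 8.19 at 15 ppm. Hibadh, an enzyme of valine breakdown, varied little between rats, with 11.66, 11.79, 11.92 and 11.98 at 0 ppm, 11.21, 11.26, 11.26 and 11.37 at 6 ppm and 10.50, 10.52, 10.77 and 10.80 at 15 ppm for 13 weeks. No rat of these groups overlapped for either gene. Pcca and Bckdhb, of propionate and branched-chain amino acid breakdown, differed by -0.96 and -0.82 at 15 ppm for 13 weeks, Glul, glutamine synthetase, by -1.29 and Gls2, a glutaminase, by -1.10. Coq8a and Pdss2, both of coenzyme Q synthesis, differed by -1.59 and -0.66 in the 13-week comparison at 15 ppm. Aldh1l1, which oxidises 10-formyltetrahydrofolate and so carries formate carbon to CO2, differed by -0.66, -0.44 and -1.01 at 5 days and by -0.40, -0.42 and -0.48 at 13 weeks, 1 of the members whose change at 13 weeks hardly grew with dose. Of 52 listed genes with reference means of 6 or more, 5 were in the set (Pcca, Bckdhb, Hibadh, Glul and Dpyd), and at 15 ppm for 13 weeks 24 were at least 0.3 lower and 8 at least 0.3 higher.

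The lists of ciliated, secretory, olfactory, basal, macrophage and dendritic, B and plasma, T and NK, granulocyte, fibroblast, endothelial and mucosal defence genes held 0 members. These lists were short, from 7 (granulocyte) to 51 (fibroblast) genes with reference means of 6 or more. Since 1.41% of all such genes entered the set, 0 members in 1 list says little. Of 34 listed aldehyde and retinoid genes with reference means of 6 or more, Aldh1l1 was in the set. Pla2g4a, a phospholipase that frees arachidonic acid, was the member of the lipid list and Azgp1, a secreted zinc-binding glycoprotein, that of the gland list. The junction and polarity scaffolds Pard3, Patj, Magi1 and Magi3 were members too, with changes of -0.46, -0.72, -1.11 and -1.0 at 15 ppm for 13 weeks. All gene lists were drawn up with earlier results of these data known.

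The genomic span of the genes, which the rule did not use, was given by RefSeq (GRCr8) for all 156 members and for 11044 of the 11083 genes with reference means of 6 or more. The median span was 80.8 kb in the set and 23.4 kb among the 11044 genes. Of the 156, 72 (46.2%) were longer than 100 kb, against 1471 of 11044 (13.3%), and 37 (23.7%) were longer than 300 kb, against 260 (2.35%). The 241 genes that were at least 0.3 higher in all 9 comparisons, by the mirror image of the rule, had a median span of 13.1 kb, and 2 of them were longer than 100 kb. This pattern was noticed after the values had been seen, and it is described here without a test.

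The share of genes that entered the set went up with span. The share was 16 of 2807 genes under 10 kb (0.57%), 23 of 3639 from 10 to 30 kb (0.632%), 45 of 3127 from 30 to 100 kb (1.44%), 35 of 1211 from 100 to 300 kb (2.89%) and 37 of 260 over 300 kb (14.2%). The longest members were Tenm4, a teneurin adhesion protein (2974.9 kb), Fhit, a nucleotide hydrolase at a human fragile site (1507.5 kb), Ccser1 (1236.5 kb), the acid-sensing channel Asic2 (1069.9 kb) and Lrmda (1059.0 kb). At 15 ppm for 13 weeks Tenm4 differed by -0.92, Fhit by -1.39, Ccser1 by -1.08, and Lrmda by -1.34. Long members did not have larger changes than short ones. The median over members of the mean change was -0.82 under 10 kb, -0.84 from 10 to 30 kb, -0.77 from 30 to 100 kb, -0.62 from 100 to 300 kb and -0.69 over 300 kb.

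Genes outside the set were ordered by span in the same direction at the highest dose. At 15 ppm the median change of non-members over 300 kb, of which 223 were measured, was -0.35 at 5 days, -0.39 at 4 weeks and -0.43 at 13 weeks, and that of non-members under 10 kb was 0.06, 0.08 and 0.05. At least 0.3 lower were 57.4%, 62.3% and 62.8% of the long non-members at those times, against 13.6%, 12.9% and 18.9% of the short ones. At 6 ppm the medians over 300 kb were -0.13, -0.20 and -0.08, against -0.02, 0.02 and 0.02 under 10 kb. At 2 ppm they were -0.17, -0.10 and 0.02 over 300 kb, against 0.001, -0.02 and -0.05 under 10 kb. The order was thus reversed at 2 ppm for 13 weeks, where 21.5% of the long non-members were at least 0.3 higher and 6.28% lower. Between 2 and 0.7 ppm at 5 days, in arrays that the rule did not use, the median was -0.10 for non-members over 300 kb and 0.07 for those under 10 kb, and at 13 weeks -0.03 and -0.02.

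**Figure D5:**
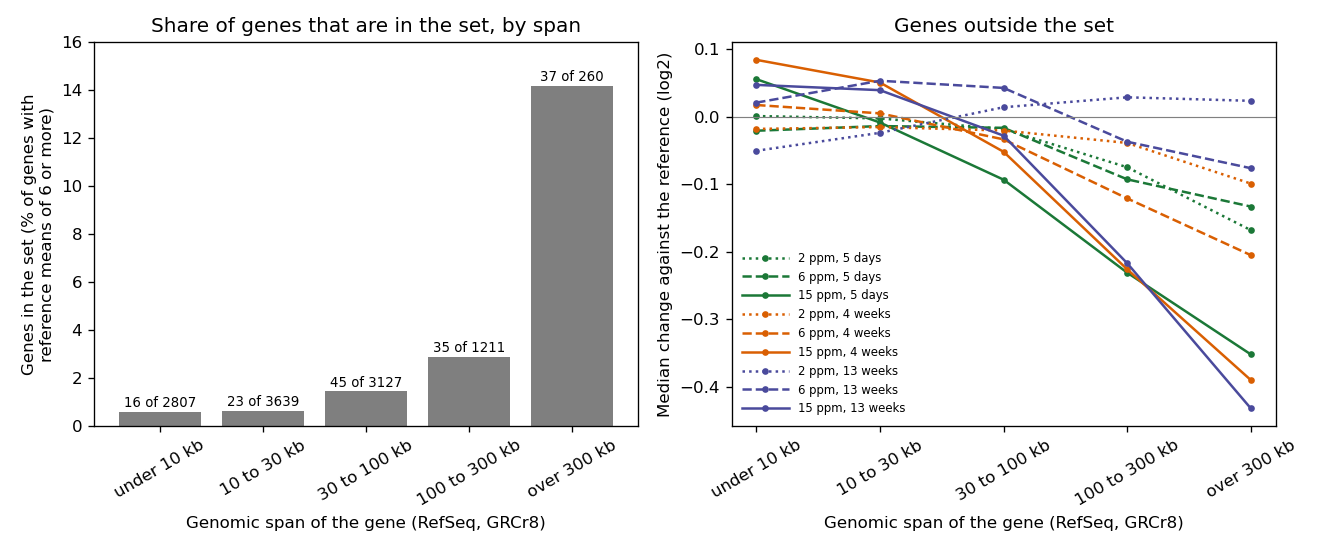
Left, the share of genes with reference means of 6 or more that are in the set, by genomic span (37 of 260 genes over 300 kb, 16 of 2807 under 10 kb). Right, the median change of genes outside the set by span at 2, 6 and 15 ppm, which at 15 ppm for 13 weeks is 0.05 under 10 kb and -0.43 over 300 kb. At 2 ppm for 13 weeks it is -0.05 under 10 kb and 0.02 over 300 kb.

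Members were also near each other on the chromosomes in places. In 13 pairs, no more than 1 other protein-coding gene of the RefSeq table lay between 2 members, among them Klf15 with Aldh1l1, Gnai1 with Gnat3, Map2k6 with Kcnj16, Kcnma1 with Lrmda, and Slco1a5 with Iapp. Chromosome 4 held 21 members among 617 genes with reference means of 6 or more (3.4%), and chromosome X held 0 among 299. These are counts without a test, and such pairs were not counted in other sets of genes. The pairs include the close relatives Asgr1 with Asgr2, Aox1 with Aox4 and Nat8f3 with Nat8f5, whose probes could read each other's transcripts.

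Comparisons of 0.7 and 2 ppm with the references share arrays with the rule and are described only. The median change of the 156 genes was -0.09 at 0.7 ppm and -0.15 at 2 ppm at 5 days, -0.13 at 2 ppm at 4 weeks, and -0.02 at 0.7 ppm and -0.27 at 2 ppm at 13 weeks. Of these 5 medians, 4 moved by over 1.5 times when 1 rat was left out. At 5 days the median at 0.7 ppm was -0.03 without animal 204 or 240, -0.05 without 235, -0.13 without 208 and -0.16 without 234, and at 2 ppm it was -0.09 without 204. At 2 ppm for 4 weeks it was -0.22 without animal 277, and at 0.7 ppm for 13 weeks it ranged from -0.10 without animal 226 to 0.08 without animal 260. With the 0.7 ppm rats as the reference, which the rule had not used at 5 days and 13 weeks, 132, 136 and 150 of the 156 genes were at least 0.3 lower at 6, 10 and 15 ppm for 5 days, against 8.56%, 9.56% and 15.3% of all genes. At 13 weeks they were 142, 153 and 155, against 4.9%, 14% and 20.5%. The exposed arrays in these counts are still those that chose the genes.

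The comparison of 2 with 0.7 ppm used no array of the rule at 5 days and 13 weeks, and it was tested with limma across all genes. At 13 weeks 150 of the 156 genes had a lower mean at 2 than at 0.7 ppm, with a median difference of -0.22, where 58.1% of all genes were lower with a median of -0.02. None of the 156 passed an adjusted p of 0.05 (limma, Benjamini-Hochberg over 14217 genes, smallest adjusted p of a member 0.653), nor did any of the 14217 genes (0 called, 0%). At an unadjusted p under 0.05, 39 members (25%) were lower and 0 higher, against 4.12% of all genes lower. The 4 rats at 2 ppm lay wholly below the 4 at 0.7 ppm for 4 members, against 1.91% of all genes.

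The largest of these differences was Slc2a13, with 8.62, 9.47, 9.62 and 9.84 at 0.7 ppm and 8.43, 8.55, 8.62 and 9.01 at 2 ppm, a difference of -0.73 ± 0.23 (SE) with an adjusted p of 0.653 in limma. Chrm3 read 7.04, 8.05, 8.17 and 8.21 at 0.7 ppm and 6.97, 7.10, 7.26 and 7.54 at 2 ppm, a difference of -0.65 ± 0.20 (SE, adjusted p = 0.653 in limma). In both genes 1 rat at 0.7 ppm was low and overlapped the 2 ppm rats.

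That rat, animal 260, had the lowest signal of its group for 134 of the 156 genes, and its mean over the set was -0.38 from the 0 ppm rats where the other 3 lay between 0.02 and 0.13. It also had the highest olfactory marker mean of the group, 12.7 against 9.48 to 10.3. Without it the median difference between 2 and 0.7 ppm was -0.33, and 2 members passed in limma, Chrm3 (-0.92, adjusted p = 0.0387) and LOC102550246 (-0.68, adjusted p = 0.0392), where the smallest adjusted p with all arrays was 0.653. The rats at 2 ppm for 13 weeks had olfactory marker means of 11.6 to 12.6, above the 3 rats at 0.7 ppm other than animal 260. Dose and olfactory marker signal were thus hard to tell apart in this comparison. With the olfactory marker mean as a covariate the median difference between 2 and 0.7 ppm was -0.13, 136 members were lower and 0 passed. In 9 of the 17 groups the rat with the lowest mean over the set had the highest olfactory marker mean. That rat had the lowest epithelial marker mean in 9 of the 17 groups as well, the lowest macrophage and dendritic mean in 8 and the lowest T cell mean in 7. The part of the other cell types in the 2 against 0.7 ppm difference was not tested.

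At 5 days 2 and 0.7 ppm were closer. The median difference was -0.02, 90 of the 156 genes were lower, and 0 members and 0 of all genes passed in limma (0%). At an unadjusted p under 0.05, 9 members (5.77%) were lower and 0 higher, against 2.81% of all genes lower, and the groups did not overlap for 6 members, against 1.63%. Nr3c2 was among them, with 9.14, 9.14, 9.43 and 9.63 at 0.7 ppm and 8.72, 8.81, 8.97 and 8.97 at 2 ppm, a difference of -0.47 ± 0.16 (SE, adjusted p = 0.385 in limma). The difference between 13 weeks and 5 days in the step from 0.7 to 2 ppm had a median of -0.20 over the 156 genes and -0.04 over all, and 0 members and 0 genes passed (0%), with 16 members lower and 0 higher at an unadjusted p under 0.05, against 6.78% of all genes lower.

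Between 5 days and 13 weeks the rats grew older by the length of the exposure, and age and exposure time cannot be told apart. At 0.7 ppm 141 of the 156 genes were higher at 13 weeks than at 5 days, with a median difference of 0.23 where that of all genes was -0.01. In limma 10 members rose and 0 fell, against 0.844% of all genes that rose and 1.89% called in either direction. The olfactory marker mean in these rats was 10.3 to 12.4 at 5 days and 9.48 to 12.7 at 13 weeks. With that mean as a covariate the median difference was 0.18 and 139 members were higher. That fit called 14 members and 803 of all genes. Tnnt1, the slow skeletal troponin T, rose most. It read 6.19, 6.24, 6.27 and 6.66 at 5 days and 7.26, 8.16, 8.53 and 8.83 at 13 weeks, a rise of 1.86 ± 0.28 (SE, adjusted p = 0.000117 in limma), and higher in 4 of 4 rats than any rat at 5 days.

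Aox4 rose by 1.32 ± 0.32 (SE, adjusted p = 0.0179 in limma), from 7.78, 8.47, 9.0 and 9.15 to 9.21, 9.79, 10.31 and 10.36, again without overlap. Glrb, a glycine receptor subunit, rose by 0.83 (adjusted p = 0.0147), LOC102550246 by 0.73 (adjusted p = 0.00639), and the monocarboxylate transporter family member Slc16a12 by 0.69 (adjusted p = 0.0308). The other called members were Syt17, Akr1c19, Lrmda, Serpinb6b and Enpp5, which rose by 0.40 to 0.56. Without animal 260 there were 22 calls, without animals 258 or 259 there were 2, without animals 235, 237 or 240 there were 4, and from these 8 arrays alone there were 0.

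At 2 ppm 5 members rose from 5 days to 13 weeks in limma and 0 fell, against 2.15% of all genes that rose and 8.53% called in either direction. They were Tnnt1 by 1.63 (adjusted p = 0.000402), Dpyd by 0.71 (adjusted p = 0.0366), Nr3c2 by 0.61 (adjusted p = 0.0134), Cxxc4, an inhibitor of Wnt signalling, by 0.61 (adjusted p = 0.0457) and Magi3 by 0.39 (adjusted p = 0.0142). From 5 days to 4 weeks Cxxc4 rose by 0.88 (adjusted p = 0.0126 in limma), the 1 member called, against 0.9% of all genes that rose and 2.39% called in either direction. From 4 to 13 weeks 0 members and 0 genes passed (0%), with 12 members higher and 1 lower at an unadjusted p under 0.05, against 4.93% of all genes higher and 5.95% lower. Without animal 268 the calls were 1 between 5 days and 13 weeks and 0 between 5 days and 4 weeks. Without animal 289 they were 2 in the first of these, and without animals 265, 286 or 287 they were 3, while without animals 276 or 277 they were 2 in the second. Between the 0 ppm groups, which chose the genes, 133 of the 156 genes had a higher mean at 13 weeks, with a median difference of 0.16.

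The RNA integrity number was 7.5 to 8.1 at 0 ppm and 8.1 to 8.8 at 15 ppm for 5 days, 8.1 to 8.3 at 0.7 ppm and 8.4 to 9.1 at 15 ppm for 4 weeks, and 7.3 to 7.7 at 0 ppm and 8.6 to 9.3 at 15 ppm for 13 weeks. At 2 ppm for 4 weeks animal 272 had an integrity number of 5.4, where the other 3 rats had 7.6 to 8.3. The beta-actin signal of the 3′ minus that of the 5′ control probe set was 1.43 to 1.89 at 0 ppm for 5 days against 2.40 to 2.82 at 6 ppm and 2.42 to 2.59 at 15 ppm. At 13 weeks it was 1.47 to 1.73 at 0 ppm against 1.64 to 1.84 at 15 ppm, which overlapped. The median change at 15 ppm was also taken with each as a covariate. With the RNA integrity number, on the arrays that had one, it was -1.0, -0.87 and -1.39 at the 3 times. With the beta-actin difference it was -0.87, -0.84 and -1.22. At 6 ppm for 5 days the median change was -0.41 with the beta-actin difference, against -0.53 without it. At 4 and 13 weeks the integrity ranges of the reference and 15 ppm rats did not overlap. The same held at 6 and 10 ppm for 5 days (8.3 to 8.7 and 8.2 to 8.9) and for 13 weeks (8.3 to 8.6 and 8.4 to 8.6). In all these comparisons dose and RNA integrity cannot be told apart. The 15 ppm range at 5 days met that of 0 ppm at 8.1. At 4 weeks the 6 and 10 ppm ranges (7.7 to 8.4 and 7.8 to 8.4) overlapped that of 0.7 ppm.

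Cell markers moved as well. At 15 ppm for 13 weeks the median change was 0.77 over 5 basal markers, -0.83 over 5 ciliated markers, -0.57 over 6 olfactory markers, -1.21 over 6 fibroblast markers and -0.57 over 9 macrophage and dendritic markers, and it was -0.91 over 4 B and plasma cell markers. At 6 ppm for 13 weeks the basal, ciliated, olfactory, fibroblast, macrophage and B cell medians were 0.09, 0.16, 0.30, -0.12, -0.23 and -0.16, where the 156 genes had a median of -0.50. At 6 ppm for 5 days the fibroblast, macrophage and endothelial medians were -0.95, -0.64 and -0.56, as low as the -0.53 of the 156 genes. At 15 ppm for 5 days the macrophage, T cell and endothelial medians were 0.55, 0.50 and 0.53, where the 156 genes were at -0.96. With the olfactory marker mean as a covariate the median change of the set at 15 ppm was -1.0, -0.87 and -1.27 at the 3 times. The part of the other cell types in the set's changes was not tested.

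In the set 55 genes had more than 1 probe set, and the brightest was used. Of the 89 others, 52 in 39 genes had reference means of 6 or more. All 9 changes were below 0 for 39 of the 52 (75%) and at least 0.3 lower for 21 (40.4%), against 14.8% and 0.816% of 3553 second probe sets of genes outside the set. Those that disagreed included a second probe set of Svil, with 0.32 at 6 ppm for 5 days but -1.24 at 15 ppm for 13 weeks, and one of Ppargc1a, with 0.23 and -1.94. The 2 probe sets of Pard3 that disagreed were at 0.57 and 0.72 at 15 ppm for 13 weeks, where the chosen one was at -0.46.

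The edge of the rule was narrow. The members nearest to it were Supt3h (-0.301 at 6 ppm for 5 days), Bend5 (-0.302 at 10 ppm for 5 days) and Tasp1 (-0.303 at 6 ppm for 4 weeks). Just outside were Zhx2 (-0.299 at 6 ppm for 13 weeks), Lpar1 (-0.298 at 10 ppm for 4 weeks) and Il34 (-0.298 at 6 ppm for 4 weeks), and 188 genes missed the rule in 1 comparison.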

How the data were processed

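RNA from nasal epithelial cells of 68 rats had been hybridised to Affymetrix Rat230_2 arrays, per the labels. The deposited log2 values were made by the authors with GCOS 1.0 and RMA, per the submitters' processing notes, and they ran from 3.17 to 15.4 with array medians of 6.82 to 6.96. They were used as deposited. Of 31099 probe sets, 20826 named 1 gene in the platform annotation, and each of 14217 genes was read from its brightest probe set (by the mean of 68 arrays).

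Groups were taken from the labels' dose and time. limma (3.58.1, R 4.3.3) fitted 1 model over all 17 groups (51 residual degrees of freedom), and contrasts of arrays outside the rule were called at an adjusted p under 0.05 (Benjamini-Hochberg over all genes). The fit and the rule were tested on simulated data. The number of arrays limits the precision. The labels name 1 animal per array, so replicates are separate rats. The members and the gene lists were chosen with earlier results of these data known. Per-rat values are given for the 10 genes with the largest mean change and the 2 largest in each list with 2 or more members, the genes nearest the threshold and all members called in a test are named, and other members are named by role. Gene spans and promoters are RefSeq's (GRCr8). Alternatives covered centring, cyclic loess, averaging of probe sets, the rule's thresholds, array weights, the RNA integrity number and leaving out each array. The covariates of olfactory markers and beta-actin, the arrays lacking an integrity number and the 0.7 ppm reference were added after the data had been seen.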

Additional observations from a re-analysis of the deposited data

Results flagged for a closer look

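Among 340 sets of 4 rats examined (the mean over the 156 genes and 19 genes with per-rat values, in 17 groups), 12 had 1 rat far from the other 3, and chance flags about 1 in 20. No group was flagged for the mean over the set. At 2 ppm for 4 weeks animal 277 was high in Slc2a13 (9.33 against 8.56 to 8.62) and in Vipr1 (10.5 against 9.73 to 9.85). Rats that were low were found for Rbms3 at 2 ppm for 5 days (9.14 against 9.66 to 9.74), at 0 ppm for 13 weeks (9.94 against 10.4 to 10.5) and at 6 ppm for 13 weeks (8.80 against 9.26 to 9.32). Aox1 had a low rat at 6 ppm for 5 days (7.96 against 9.03 to 9.16) and at 0.7 ppm for 13 weeks, where animal 260 read 9.09 against 10.1 to 10.2. Klf15 had a low rat at 2 ppm for 5 days (8.29 against 9.02 to 9.15) and at 15 ppm for 5 days (7.59 against 7.96 to 8.04), and Lgi1 at 10 ppm for 4 weeks (6.15 against 6.82 to 6.92). Stap1 had a high rat at 15 ppm for 13 weeks (8.55 against 7.51 to 7.62) and Slc2a13 at 0.7 ppm for 4 weeks (9.22 against 8.98 to 9.01).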

How the results depend on the processing

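The set depended most on its threshold, with 391 genes at a difference of 0.2 and 35 at 0.5. Leaving out 1 array gave 130 genes (without animal 310) to 186 (without animal 303), both at 6 ppm for 4 weeks. With 0.7 ppm as the reference at every time there were 137 genes, 106 of them shared. The 16 medians over the set moved by less than the SD between rats of the mean over the set (0.138) in 238 of 240 alternatives. The exceptions were the median at 15 ppm for 13 weeks with averaged probe sets (-1.07) and with the RNA integrity number as a covariate (-1.39). Every fit with that covariate also leaves out the arrays lacking an integrity number. Leaving those arrays out without the covariate gave a median of -1.32 in this comparison. This spread is wide against the low-dose medians, several of which moved by over 1.5 times when 1 array was left out. Of the 240, 5 changed sign, among the medians near 0: 2 against 0.7 ppm at 5 days ranged from -0.09 to 0.03, and 0.7 ppm at 13 weeks from -0.13 to 0.08. Of the tests, array weights gave 1 call for 2 against 0.7 ppm at 5 days, 11 at 13 weeks (0 to 2 when 1 array was left out), 29 for time at 0.7 ppm and 26 for 13 weeks against 5 days at 2 ppm, where 10, 187, 848 and 2641 of all genes were called. The same 2 time tests gave 6 and 1 with the RNA integrity number as a covariate, 0 and 14 from their own arrays alone, and 2 to 22 and 1 to 6 when 1 array was left out. Averaging probe sets gave 5 calls for time at 0.7 ppm, and dropping arrays that lack an integrity number gave 2 for 13 weeks against 5 days at 2 ppm. For 4 weeks against 5 days at 2 ppm there were 2 with cyclic loess, 0 from its own arrays and 0 to 2 when 1 array was left out. The causes were not tested. No paired analysis was possible because each rat was in 1 group. How many arrays a group holds limits what could be called.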

Other observations

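The same rule was met by 50 of 3844 probe sets with no gene in the annotation and reference means of 6 or more (1.3%, against 1.41% of named genes). The mirror rule, at least 0.3 higher in all 9 comparisons, was met by 241 genes.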
